A study of Mus musculus with 17 samples.

Results

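RNA sequencing counts were compared between 2 kinds of mouse tumour that carried the same genotype label, Rb1/Trp53, and differed in the hormone gene that dominated their RNA. Of the 17 tumours sequenced, 9 carried this label, and those 9 make up the comparison. In 6 of them (T2 and T5 to T9, called Pomc-high here) the count of Pomc exceeded that of Calca, and in the other 3 (T1, T3 and T4, called Calca-high) the count of Calca exceeded that of Pomc. The larger of the 2 counts was at least 1074 times the smaller in each of the 9 libraries, so no tumour stood near the border between the sets. All 9 tumours were labelled as neuroendocrine tumours of the pituitary. The label names engineered Rb1 and Trp53, which both sets share, and no Crebbp allele. The strain, the alleles, any recombinase driver, the age and the sex of the mice are not stated in any source used here, nor whether each tumour is from its own mouse. The remaining 8 tumours, labelled Rb1/Trp53/Crebbp, served as libraries that had no part in choosing the sets of the 9. Split in turn by the same comparison of their own Pomc and Calca counts, 4 of these were Pomc-high (T5 to T8) and 4 Calca-high (T1 to T4).

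Rb1 encodes the retinoblastoma protein, which restrains entry into S phase, and Trp53 encodes the tumour suppressor p53. Mice that lose both are known for endocrine tumours at several sites, among them the melanotrophs of the intermediate lobe of the pituitary and the C cells of the thyroid. Melanotrophs make proopiomelanocortin, the product of Pomc, under the T-box factor Tbx19 and the paired-box factor Pax7, and cut it into melanocyte-stimulating hormones. Corticotrophs of the anterior lobe use Tbx19 without Pax7 and make ACTH from the same precursor. C cells make calcitonin from Calca, which also encodes the neuropeptide CGRP, and arise from foregut endoderm marked by Nkx2-1, Foxa1 and Foxa2.

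The 4 genes that mark the sets are shown with the 250 bases before their start sites, because the report turns on their levels. The sequences are those of RefSeq on build GRCm38.p6, 5′ to 3′ on the strand of the gene. All 4 symbols matched the promoter table. The regions are chr12:3954695-3954944 for Pomc (plus strand), chr1:165160774-165161023 for Tbx19, chr7:114636358-114636607 for Calca and chr12:56536909-56537158 for Nkx2-1 (minus strand for these 3). Capitals mark matches to the 7 motifs searched on both strands.
Pomc: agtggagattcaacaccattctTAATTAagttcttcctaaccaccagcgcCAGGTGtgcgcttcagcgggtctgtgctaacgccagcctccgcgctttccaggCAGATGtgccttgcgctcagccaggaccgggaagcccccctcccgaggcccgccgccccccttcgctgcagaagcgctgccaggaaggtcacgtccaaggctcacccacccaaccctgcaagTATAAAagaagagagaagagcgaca
Tbx19: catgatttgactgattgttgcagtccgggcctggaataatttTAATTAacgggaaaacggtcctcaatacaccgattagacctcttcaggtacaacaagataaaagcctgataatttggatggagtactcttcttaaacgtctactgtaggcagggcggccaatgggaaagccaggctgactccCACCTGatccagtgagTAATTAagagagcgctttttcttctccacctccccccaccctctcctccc
Calca: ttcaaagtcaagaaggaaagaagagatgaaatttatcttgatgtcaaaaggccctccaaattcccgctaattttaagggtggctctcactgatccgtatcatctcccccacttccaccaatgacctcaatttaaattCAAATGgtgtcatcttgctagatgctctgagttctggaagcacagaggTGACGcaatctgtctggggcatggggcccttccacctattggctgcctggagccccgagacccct
Nkx2-1: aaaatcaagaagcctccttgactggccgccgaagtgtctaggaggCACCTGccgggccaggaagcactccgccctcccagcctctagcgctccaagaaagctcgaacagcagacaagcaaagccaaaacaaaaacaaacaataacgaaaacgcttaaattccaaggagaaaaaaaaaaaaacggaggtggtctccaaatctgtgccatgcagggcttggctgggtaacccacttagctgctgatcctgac
The motifs were the TATA box TATAAA, the E-box CANNTG (bound by basic helix-loop-helix factors), the cyclic AMP response core TGACG, the homeodomain core TAATTA, the Pitx and Otx core TAATCC, the T-box core TCACACC and the Nkx2-1 core CAAGTG, which is also an E-box. The Pomc promoter held TATAAA 25 bases before the start, with E-boxes at 200 and 147 bases and TAATTA at 228 bases. In Tbx19 there were 2 copies of TAATTA, at 208 and 50 bases before the start, and an E-box at 66. Calca held an E-box at 113 and TGACG at 65 bases, and Nkx2-1 an E-box at 205 bases. Over 27025 mouse promoters of this length, 13% held TATAAA, 66% an E-box, 17.9% TGACG, 4.9% TAATTA, 6.38% TAATCC, 3.31% TCACACC and 11.6% CAAGTG. The T-box core TCACACC occurred in 7.45% of the 161 matched promoters of genes at least 32-fold higher in the Pomc-high set and in 2.79% of the 179 of genes at least 32-fold higher in the Calca-high set. CAAGTG occurred in 11.8% and 13.4% of the same promoters. These matches are descriptions of letters and show no binding.

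The total count on genes was about 20361700 to 28140800 in the 3 Calca-high and 8741090 to 19994400 in the 6 Pomc-high libraries. Before the scaling described next, 1 count was thus worth 0.0355 to 0.114 CPM. Levels are given as CPM, the counts of a gene per 1000000 counts on genes, after scaling by the TMM method. Between 16809 and 17579 genes had a count, and 19.5% to 32.5% of the counts fell on the 10 genes with the highest counts. No 2 libraries of a set were copies of each other, with a chi-square per degree of freedom of at least 10.7 over 18 pairs. Rb1 stood at 32.5 to 62.0 CPM and Trp53 at 11.8 to 31.2 CPM in the 9 libraries, but counts over whole genes do not check a deleted exon, so they do not test the label. Y-linked genes summed to 140, 144 and 113 CPM in T1, T3 and T4 and to 187 CPM in T2, against at most 0.219 CPM in the other 5. Xist, which silences the second X chromosome of females, stood at 886 to 1901 CPM in T5, T6, T7 and T9. T8 had neither, with Xist at 4.56 CPM. Y-linked transcripts were therefore found in 3 of 3 Calca-high and 1 of 6 Pomc-high tumours, and their part in the differences between the sets was not tested.

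The markers went against the pituitary label in the Calca-high libraries. Pomc stood at 29.2 CPM in T1, 5.01 in T3 and 5.95 in T4, against a lowest value of 196234, a median of 238683 and a highest of 300622 CPM in the Pomc-high set. Calca stood at 110790, 166608 and 145217 CPM in T1, T3 and T4, and between 54.6 and 239 CPM with a median of 71.9 in the Pomc-high set. The tumours were chosen by the counts of these 2 genes, so their separation is no result. Tbx19 had no count in T1 and T4 and 0.0716 CPM in T3, while Nkx2-1 was at 312, 309 and 311 CPM in T1, T3 and T4. The Pomc-high set had Tbx19 at 288, 331 and 374 CPM (lowest, median and highest) and Nkx2-1 at 0.399, 1.51 and 2.64 CPM. Of the 7 markers of calcitonin-producing cells other than Calca, Nkx2-1, Ret, Gfra4, Foxa1, Foxa2 and Calcb were higher in T1, T3 and T4 at least 2-fold and without overlap, and Calcr was too low to be tested. The Calca-high libraries are called by that gene in what follows and not by a tissue.

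Over all genes the 2 sets were far apart. The fit (edgeR, on the counts of the 9 libraries) gave each gene a log2 difference, Pomc-high minus Calca-high, with its standard error (SE). A gene was counted as higher in a set where the fitted difference was at least 2-fold and the CPM ranges of the 3 and the 6 libraries did not overlap. Of 15104 genes tested, 1844 (12.2%) were higher in Pomc-high tumours and 1865 (12.3%) in Calca-high ones, 24.6% in all. The sets were made from this same contrast, so these counts and those for gene lists below describe the libraries and carry no p-value. The shares of 12.2% and 12.3% are the background for each list count below. Several list counts, mostly on the side with fewer genes, lie near or below them. The differences were large, with 954 and 1013 genes past 4-fold, 224 and 270 past 32-fold and 96 and 110 past 128-fold in the 2 directions. In these bulk samples, fewer cells of a type and less RNA per cell cannot be told apart.

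Factors of pituitary identity were among the largest differences. Of 18 tested genes of the melanotroph and corticotroph list, with Pomc left out because it chose the sets, 13 were higher in Pomc-high tumours and 2 in Calca-high ones, with a median log2 difference of 2.90, against -0.01 over all genes tested. Pax7, the factor that sets melanotrophs apart from corticotrophs, was at 191, 228 and 281 CPM (lowest, median and highest) in the Pomc-high set and at 0.0863, 0 and 0.0472 CPM in T1, T3 and T4. The 3 Calca-high libraries together held 3 counts of Pax7, which puts the ratio of the sets at 5550 with a 95% counting interval of 1899 to 26911. For Tbx19 the ratio was 11982, with an interval of 3317 to 98942. Both factors were thus all but absent from the Calca-high libraries and did not overlap between the sets.

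The homeobox genes Six3, Six6 and Vax1, which act in the early pituitary and the ventral forebrain, showed the same on-off pattern. Six3 had no count in T1, T3 and T4 and stood at 220 to 282 CPM in the Pomc-high set, at least 5869-fold higher against a floor of 3 counts over the Calca-high libraries. Vax1 was at least 798-fold higher on the same floor, at 27.6 to 39.7 CPM. Six3os1, which lies beside Six3 and runs antisense to it, was at least 1362-fold higher, but no source used here states the strand setting of the counting, and its reads cannot be told from those of Six3. Six6 was at 70.4 to 97.8 CPM, with single counts in T1 and T4. Drd2, the dopamine receptor through which melanotrophs are held in check, was at 424, 476 and 529 CPM against 0.475, 0.644 and 2.88 CPM in T1, T3 and T4, a log2 difference of 8.52 ± 0.53 SE.

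Other pituitary markers were graded and not absent. Pitx1, a homeobox factor of all pituitary lineages, was at 143, 176 and 225 CPM in the Pomc-high set and at 0.992, 3.51 and 27.2 CPM in T1, T3 and T4, so that T4 lay above both other Calca-high tumours. Sox2, a factor of pituitary progenitors, was uneven in the Calca-high set in the same way, with 1.60, 1.43 and 29.1 CPM against 59.1 to 77.5 CPM. Receptors of the corticotroph axis were low in both sets, with Crhr1 at 0.657 to 3.89 and Avpr1b at 1.83 to 12.9 CPM in the Pomc-high and at most 0.475 and 0.394 CPM in the Calca-high libraries. The 2 members of the list that were higher in the Calca-high set were Isl1, a LIM-homeobox factor of many endocrine cells, at 106, 107 and 113 CPM against a Pomc-high median of 2.76 CPM, and the glucocorticoid receptor gene Nr3c1, at 63.9, 62.0 and 59.4 CPM against a median of 19.2 CPM.

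**Figure D1:**
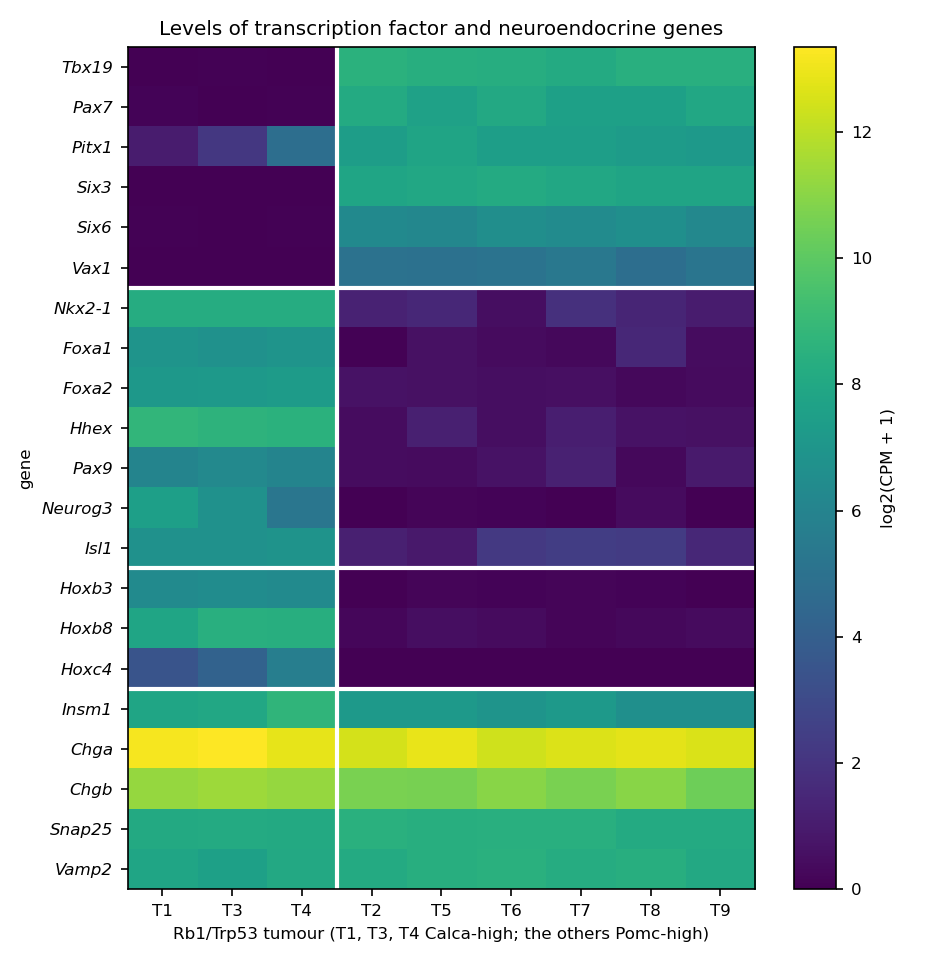
Levels of 21 genes as log2(CPM + 1) by colour in the 9 Rb1/Trp53 tumours, with the Calca-high T1, T3 and T4 left of the white line. Pituitary factors are low in the left 3 columns except Pitx1 in T4, foregut factors and Hox genes are low in the right 6, and the neuroendocrine genes of the last block are bright in all 9.

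Hormones of the other anterior lobe cells varied among the Pomc-high tumours and were all but missing from the Calca-high ones. Of the 12 genes of that list, 6 had no count in T1, T3 and T4, and the list summed to 3.97, 9.92 and 34.7 CPM there. Prl, the prolactin gene, ranged from 9.15 to 10101 CPM with a median of 1725 among the 6 Pomc-high tumours, and Gh, the growth hormone gene, from 1.23 to 3123 CPM with a median of 129. The summed list reached 13550 CPM in T6, 9484 in T8, 2994 in T7 and 803 in T9, but 87.9 CPM in T2 and 51.7 CPM in T5. Prl and Gh are markers of lactotrophs and somatotrophs and thus of normal pituitary that a sample could hold, and their part in the other differences was not tested. As Gh had no count in the Calca-high libraries, it was at least 16582-fold higher in the Pomc-high set. Its highest values were 3123, 719 and 182 CPM in T6, T8 and T7.

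Transcription factors of foregut endoderm were the counterpart in the Calca-high set. Of 23 tested, 16 were higher in Calca-high tumours and 3 in Pomc-high ones, with a median log2 difference of -4.84. Hhex, a homeobox factor of thyroid, liver and pancreas, was at 441, 393 and 373 CPM in T1, T3 and T4 and at 0.379, 0.527 and 1.23 CPM (lowest, median and highest) in the Pomc-high set. Foxa1 was at 118, 108 and 121 CPM against at most 1.85 CPM, and Foxa2, the other pioneer factor of endoderm, at 140, 151 and 159 CPM against at most 0.569 CPM. The 3 Calca-high tumours were alike in these genes, and none of their values came near the Pomc-high range. Pax8, a thyroid follicular factor, was less even, at 84.0, 44.1 and 19.6 CPM against at most 1.08 CPM. The 3 members of the list that were higher in the Pomc-high set were Six2 (53.04 to 70.9 CPM against 0.734, 0.251 and 9.35 CPM), Foxp2 (8.71 to 23.9 against at most 1.81 CPM) and Gata6 (1.43 to 3.49 against at most 0.820 CPM).

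All 11 tested Hox genes were higher in the Calca-high set, with a median log2 difference of -9.47 (-9.44 with genes that had no count in a set at their bound). Hox genes set position along the body axis, from the hindbrain back. Hoxb8 stood at 231, 346 and 329 CPM in T1, T3 and T4 and at 0.120 to 0.394 CPM in the Pomc-high set. Hoxb3 was at 82.5, 88.8 and 83.5 CPM against at most 0.148 CPM, Hoxb6 at 75.0, 103 and 94.3 CPM against at most 0.299 CPM, and Hoxb2 at 60.9, 77.2 and 72.0 CPM against at most 0.148 CPM. Hoxc4 had no count in any of the 6 Pomc-high libraries, which made it at least 681-fold higher in the Calca-high set, but it spread over the 3 Calca-high tumours, with 10.2, 17.04 and 51.9 CPM.

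Among the calcitonin peptides and their receptors, 4 of 9 tested genes other than Calca were higher in Calca-high tumours and 3 in Pomc-high ones, with a median log2 difference of -0.01. Calcb, which encodes a second CGRP, was at 4.92, 6.37 and 13.8 CPM in T1, T3 and T4, and the 6 Pomc-high libraries held 2 counts in all (ratio 324, counting interval 89.8 to 2677). Iapp, the amylin gene, was also low but separated, at 1.47, 1.61 and 6.24 CPM against at most 0.120 CPM. Ramp1, a partner of the CGRP receptor, was at 62.3, 48.5 and 28.0 CPM against at most 3.26 CPM. On the other side, the adrenomedullin genes Adm (28.7, 48.6 and 71.1 CPM against 7.12, 6.55 and 5.76 CPM) and Adm2 (10.7, 14.2 and 22.4 CPM against 0.432, 1.18 and 2.98 CPM) were higher in the Pomc-high tumours.

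The receptor tyrosine kinase Ret, which is activated by ligands of the Gdnf family together with Gfra co-receptors, split by set with its partners. Ret was at 300, 255 and 402 CPM in T1, T3 and T4 and at 0.499, 1.11 and 1.52 CPM in the Pomc-high set, a log2 difference of -8.25 ± 0.24. Gfra4, the co-receptor for persephin, was at 282, 296 and 361 CPM against 57.0 to 125 CPM, and Gfra3 at 5.01, 4.26 and 2.83 CPM against no count. The Pomc-high tumours instead had the ligand gene Gdnf (17.03 to 26.3 CPM against 0, 0.0716 and 0 CPM) and its co-receptor gene Gfra1 (46.2 to 67.2 CPM against 5.44, 2.72 and 0.898 CPM), with Ret itself close to background.

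Peptide hormone genes besides Pomc and Calca were divided between the sets. Of 22 tested neuropeptide genes, 10 were higher there and 5 in the Pomc-high set, and the median log2 difference was -1.29. Sst, the somatostatin gene, was at 855 CPM in T1, 663 in T3 and 6061 in T4, against 0.438 to 1.799 CPM in the Pomc-high set. Ppy, which encodes pancreatic polypeptide, had no count in the Pomc-high libraries and 3.67, 4.94 and 63.2 CPM in T1, T3 and T4, at least 618-fold higher. Pyy (13.7, 3.40 and 52.9 CPM) and the endothelin gene Edn3 (13.6, 134 and 286 CPM) exceeded the highest Pomc-high values of 0.299 and 2.64 CPM. For Sst, Ppy, Pyy and Edn3 the highest value was in T4.

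The peptide genes of the Pomc-high set were the neurosecretory protein gene Vgf, at 269, 338 and 428 CPM against 9.06, 30.7 and 36.7 CPM, neuromedin B (Nmb, 32.6 to 76.5 against at most 1.68 CPM), prodynorphin (Pdyn, 42.1 to 76.8 against 2.11, 1.90 and 20.03 CPM), Cartpt (1.10 to 5.65 against at most 0.803 CPM) and Tac1. Tac1, the substance P gene, had no count in the Calca-high set and only 0.804 to 3.04 CPM in the other. Galanin (Gal) overlapped, with 2.11, 4.15 and 17.5 CPM in T1, T3 and T4 and 8.88 to 60.1 CPM in the Pomc-high tumours.

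**Figure D2:**
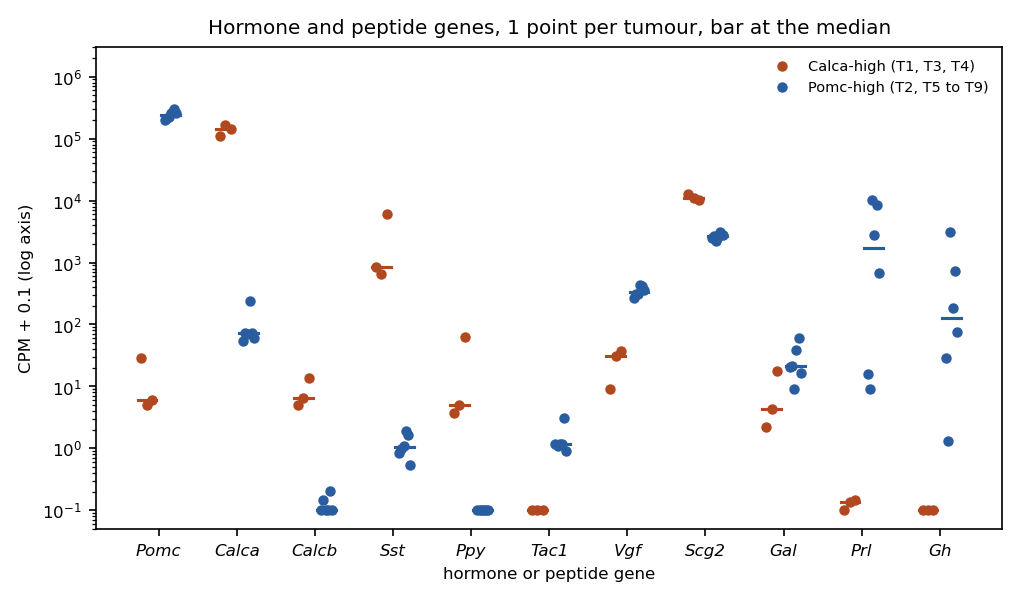
Levels of 11 hormone and peptide genes in each tumour as CPM + 0.1 on a log axis, with Calca-high tumours in orange, Pomc-high tumours in blue and a bar at each median. Pomc and Calca lie on opposite sides with no overlap, Sst and Ppy have their highest value in T4, and Prl and Gh spread widely within the Pomc-high set.

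Genes of the core of the secretory pathway were abundant in both sets but not level. The granin and neuroendocrine list summed to 27949 to 30165 CPM in the Calca-high and 14944 to 18373 CPM in the Pomc-high libraries. Of its 22 tested genes, 5 were higher in Calca-high tumours, 3 were higher in Pomc-high ones and 14 did not pass the rule of 2-fold without overlap, among them chromogranin A (Chga, 9354, 10437 and 7510 CPM in T1, T3 and T4 and 5426 to 7696 CPM in the others), Chgb (2397, 2674 and 2414 CPM against 1347 to 2011 CPM, apart by less than 2-fold) and Ptprn (550, 826 and 1152 CPM against 753 to 1102 CPM). Secretogranin II (Scg2) was higher in the Calca-high set, at 12710, 11161 and 10273 CPM against 2204, 2648 and 3136 CPM, and Scg3 went the same way at 781, 692 and 657 against 245 to 341 CPM. Insm1, a zinc-finger factor of endocrine differentiation, was at 227, 252 and 424 CPM against 98.4 to 146 CPM. Vgf, Gap43 (25.5 to 56.2 against at most 6.08 CPM) and Eno2 (264 to 326 against 109, 126 and 193 CPM) were higher in the Pomc-high set. These 3 of 22 lie near the 12.2% of all genes that were higher there.

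The proteases that cut prohormones divided in a way that touched both hormones. Pcsk2, the convertase that yields melanocyte-stimulating hormone from the Pomc product, overlapped, at 7274, 6725 and 5834 CPM in T1, T3 and T4 and 5431 to 7717 CPM in the Pomc-high tumours. Pcsk1, the convertase that yields ACTH, was higher in the Calca-high set, at 717, 676 and 931 CPM against 112 to 190 CPM, a log2 difference of -2.32 ± 0.16. Furin (178, 198 and 204 CPM against 62.0 to 79.7 CPM) and Pcsk6 (248, 242 and 88.2 CPM against 4.72 to 10.6 CPM) were higher there too. Of 22 tested processing genes, 5 were higher in Calca-high tumours and 2 in Pomc-high ones, the latter the carboxypeptidase gene Cpz (68.4 to 108 against at most 0.179 CPM) and Qpct (26.9 to 50.3 against 4.53, 5.44 and 7.37 CPM), which forms pyroglutamate at the end of peptides. The 2 of 22 did not exceed the 12.2% of all genes that were higher in Pomc-high tumours. The carboxypeptidase Cpe and the amidating enzyme Pam did not pass the rule, with log2 differences of 0.84 ± 0.13 and -0.23 ± 0.13.

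In the machinery of vesicle release the total was alike and the isoforms differed. The 49 genes of the list summed to 4322 to 4483 CPM in the Calca-high and 4395 to 4826 CPM in the Pomc-high libraries. Of 47 tested, 20 were higher in the Pomc-high set and 5 in the Calca-high set. The SNARE genes Snap25 (274, 285 and 271 CPM in T1, T3 and T4, 281 to 358 CPM in the others) and Vamp2 (226, 193 and 269 CPM, 267 to 349 CPM) did not separate by 2-fold. The calcium sensors did: Syt1 was at 2.03, 2.58 and 62.0 CPM in T1, T3 and T4 and at 422 to 502 CPM in the Pomc-high set, and Syt4 at 37.3, 67.1 and 34.3 against 358 to 551 CPM. Syt7, another calcium sensor, took the other side at 671, 710 and 749 CPM against 74.9 to 89.2 CPM, with Cplx2, a complexin that clamps fusion, at 1416, 1441 and 1202 against 70.9 to 131 CPM. T4 again stood apart for Syt1 and for Syt5 (26.3 CPM against 4.27 in T1 and 4.90 in T3).

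Receptors and ion channels were divided between the sets, with members higher on each side. Of 35 tested receptors for peptides and amines, 13 were higher in Pomc-high tumours and 12 in Calca-high ones. The melanocortin receptor gene Mc3r and the serotonin receptor gene Htr2c had no count in T1, T3 and T4 and were at least 177-fold and 150-fold higher in the Pomc-high set, at 4.75 to 9.02 and 4.97 to 9.20 CPM. Somatostatin receptors were exchanged, with Sstr1 at 30.0, 60.3 and 81.3 CPM in the Pomc-high set against at most 0.0863 CPM, and Sstr3 at 46.0, 62.7 and 56.3 CPM in T1, T3 and T4 against at most 0.978 CPM. Gcgr, the glucagon receptor gene, was at 133, 152 and 66.6 CPM in T1, T3 and T4 against at most 0.146 CPM. Adra2a, an inhibitory adrenergic receptor gene, was at 36.1, 94.97 and 64.2 CPM against at most 0.959 CPM.

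Of 37 tested receptors for GABA, glycine and glutamate, 19 were higher in Pomc-high tumours and 4 in Calca-high ones, with a median log2 difference of 1.56. The glycine receptor gene Glra2 was at 28.5 to 41.4 CPM against 0, 0.143 and 0 CPM in T1, T3 and T4, and the GABA-A receptor gene Gabra2 at 20.9 to 41.1 CPM against at most 0.0863 CPM. Grik1, a kainate receptor gene, was at 39.4 to 70.7 CPM, with a single count in the Calca-high libraries. The 4 on the other side were Grin2c, Grin2d, Grm2 and Glrb, with Grin2d at 34.0, 24.7 and 30.0 CPM against 3.43 to 6.18 CPM. Gad2, which makes GABA, was at 37.7 to 94.1 CPM in the Pomc-high set and at most 0.378 CPM in the Calca-high set, so a GABA-making enzyme and several GABA receptor subunits were high in the same tumours.

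Calcium channel subunits were exchanged within the family. Cacna2d1 was at 214, 240 and 290 CPM in the Pomc-high set and at 3.88, 0.823 and 2.60 CPM in T1, T3 and T4. Cacna2d2, its paralogue, was at 317, 258 and 151 CPM in T1, T3 and T4 and at 11.6 to 16.7 CPM in the Pomc-high set. The T-type channel gene Cacna1i was higher in the Pomc-high set (27.4 to 50.8 against at most 1.81 CPM) and Cacna1h in the Calca-high set (84.6, 143 and 165 against at most 4.13 CPM), while Cacna1a overlapped. Of 61 tested potassium channel genes, 20 were higher in Pomc-high tumours and 10 in Calca-high ones. Both parts of the ATP-sensitive channel that couples glucose to insulin release in beta cells were among the latter: Abcc8 at 383, 357 and 276 CPM against 4.39 to 12.1 CPM, and Kcnj11 at 65.5, 74.8 and 84.8 CPM against 2.28 to 3.48 CPM.

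Of 13 tested genes of monoamine synthesis and transport, 7 were higher in Calca-high tumours and 2 in Pomc-high ones. The 2 were Tph2, an enzyme of serotonin synthesis, and Gad2, which makes GABA and no monoamine. Ddc, the decarboxylase that makes dopamine and serotonin, was at 153, 226 and 486 CPM in T1, T3 and T4 and at 0.584 to 1.68 CPM in the Pomc-high tumours. Th, the first enzyme of catecholamine synthesis, was at 36.1, 18.2 and 10.3 CPM against at most 1.30 CPM. The cofactor enzymes Gch1 (65.2, 84.3 and 77.5 against 12.2 to 24.3 CPM) and Qdpr (158, 152 and 145 against 46.1 to 64.0 CPM) went the same way.

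Transcription factors of neuroendocrine and islet cells fell on both sides, 12 of 42 tested being higher in Calca-high tumours and 10 in Pomc-high ones. Neurog3, the factor that commits gut and pancreas progenitors to endocrine fate, was at 186, 105.3 and 36.7 CPM in T1, T3 and T4 and at most 0.326 CPM in the Pomc-high set. Nkx2-2 (9.06, 9.49 and 20.9 against at most 0.146 CPM) and Irx2 (5.91, 32.3 and 96.1 against at most 0.120 CPM) were also higher there. The Pomc-high set had Pax6 (4.68 to 8.22 against at most 0.142 CPM), Fev (4.62 to 17.6 against at most 0.425 CPM) and the LIM-only gene Lmo3 (7.49 to 15.3 against at most 0.0432 CPM). Sox11 and Myt1 did not separate.

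Epithelial genes separated mainly on the Calca-high side, while neural adhesion genes split both ways. Of 53 tested genes of simple epithelium and tight junctions, 30 were higher in Calca-high tumours and 4 in Pomc-high ones. Cdh1, the epithelial cadherin gene, was at 279, 255 and 225 CPM in T1, T3 and T4 and at 0.886, 2.42 and 6.35 CPM in the others. The keratin gene Krt19 was at 87.3, 84.3 and 112 CPM against at most 3.84 CPM, and the claudin genes Cldn7 and Cldn4 at 104.9, 105.4 and 72.2 CPM and at 122, 103 and 64.9 CPM against at most 1.63 and 4.44 CPM. Other epithelial genes were common to both sets, with the splicing regulator Esrp1 at 97.0, 98.8 and 86.5 CPM against 92.3 to 134 CPM and the protease inhibitor gene Spint1 at 188, 179 and 171 against 148 to 182 CPM. Cldn9 was the exception among claudins, at 52.8 to 71.4 CPM in the Pomc-high and 7.03, 4.73 and 2.69 CPM in the Calca-high libraries.

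Of 46 tested neural adhesion genes, 21 were higher in Pomc-high tumours and 11 in Calca-high ones. Cdh13, a cadherin without an intracellular part, was at 123, 149 and 199 CPM in the Pomc-high set and at 2.03, 3.08 and 3.68 CPM in T1, T3 and T4. Cdh10 and Cdh18, type II cadherins of the brain, were at 6.95 to 15.6 and 3.36 to 9.28 CPM against at most 0.0432 and 0.189 CPM. Ncam1 was shared, at 212, 231 and 256 CPM and 173 to 309 CPM. Among axon guidance genes, 20 of 65 were higher in Pomc-high tumours and 13 in Calca-high ones. Dcc, the netrin receptor gene, was at 55.1 to 91.6 CPM against 0, 0.215 and 0 CPM, while Efnb1 and Ephb3 were higher in T1, T3 and T4 (42.4, 49.8 and 52.7 against at most 8.84 CPM, and 31.9, 35.8 and 60.4 against at most 11.9 CPM).

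Secreted inhibitors and ligands of signalling pathways were among the separated genes. In the Wnt list, 15 of 42 tested genes were higher in Calca-high tumours and 6 in Pomc-high ones. The secreted Wnt inhibitor Sfrp5 was at 3108, 2077 and 1017 CPM in T1, T3 and T4 and at most 2.19 CPM in the Pomc-high set, and Frzb, another, at 98.4, 72.6 and 190 CPM against at most 0.877 CPM. The Pomc-high set had the ligand Wnt5b (56.0 to 79.9 against at most 3.54 CPM) and Rnf43, which removes Wnt receptors from the membrane (52.99 to 79.1 against 6.69, 3.26 and 1.795 CPM). In the BMP, activin and TGF-beta list, 17 of 50 genes were higher in Calca-high tumours and 6 in Pomc-high ones. Over all genes 12.3% were higher in Calca-high and 12.2% in Pomc-high tumours. The 6 Pomc-high genes of the Wnt list and the 6 of the BMP list lie near that share. Chrd, an antagonist of BMPs, was at 72.8 to 188 CPM in the Pomc-high and 21.0, 10.3 and 8.79 CPM in the Calca-high libraries. The transducers Smad4 and Smad5 and the receptor Bmpr1a did not separate by 2-fold.

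Growth factor genes also fell on both sides. Bdnf was at 46.3, 58.9 and 85.8 CPM in the Pomc-high set and at most 0.283 CPM in the Calca-high set, with the receptor gene Ntrk3 at 23.3 to 43.4 against at most 0.604 CPM. Fgf1 was at 362, 415 and 258 CPM in T1, T3 and T4 against 22.4 to 52.9 CPM, and Igf1 at 554, 274 and 61.5 CPM against 7.39 to 12.9 CPM. The stem cell factor gene Kitl was higher in the Calca-high set (29.9, 34.9 and 21.4 against at most 3.96 CPM) and its receptor gene Kit in the Pomc-high set (71.9 to 100 against 12.4, 5.55 and 3.83 CPM). In the cAMP list, 19 of 53 genes were higher in Pomc-high tumours and 5 in Calca-high ones, with Gnas, the stimulatory G protein, overlapping at 8888, 11066 and 8012 CPM and 9495 to 11462 CPM. Pde10a was at 98.3 to 156 CPM against at most 9.95 CPM, and Adcy2, an adenylyl cyclase gene, at 123, 158 and 316 CPM in T1, T3 and T4 against at most 5.10 CPM. In the Notch list, 6 of 29 were higher in Pomc-high tumours and 8 in Calca-high ones, the latter including Dll1 and Hes1.

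**Figure D3:**
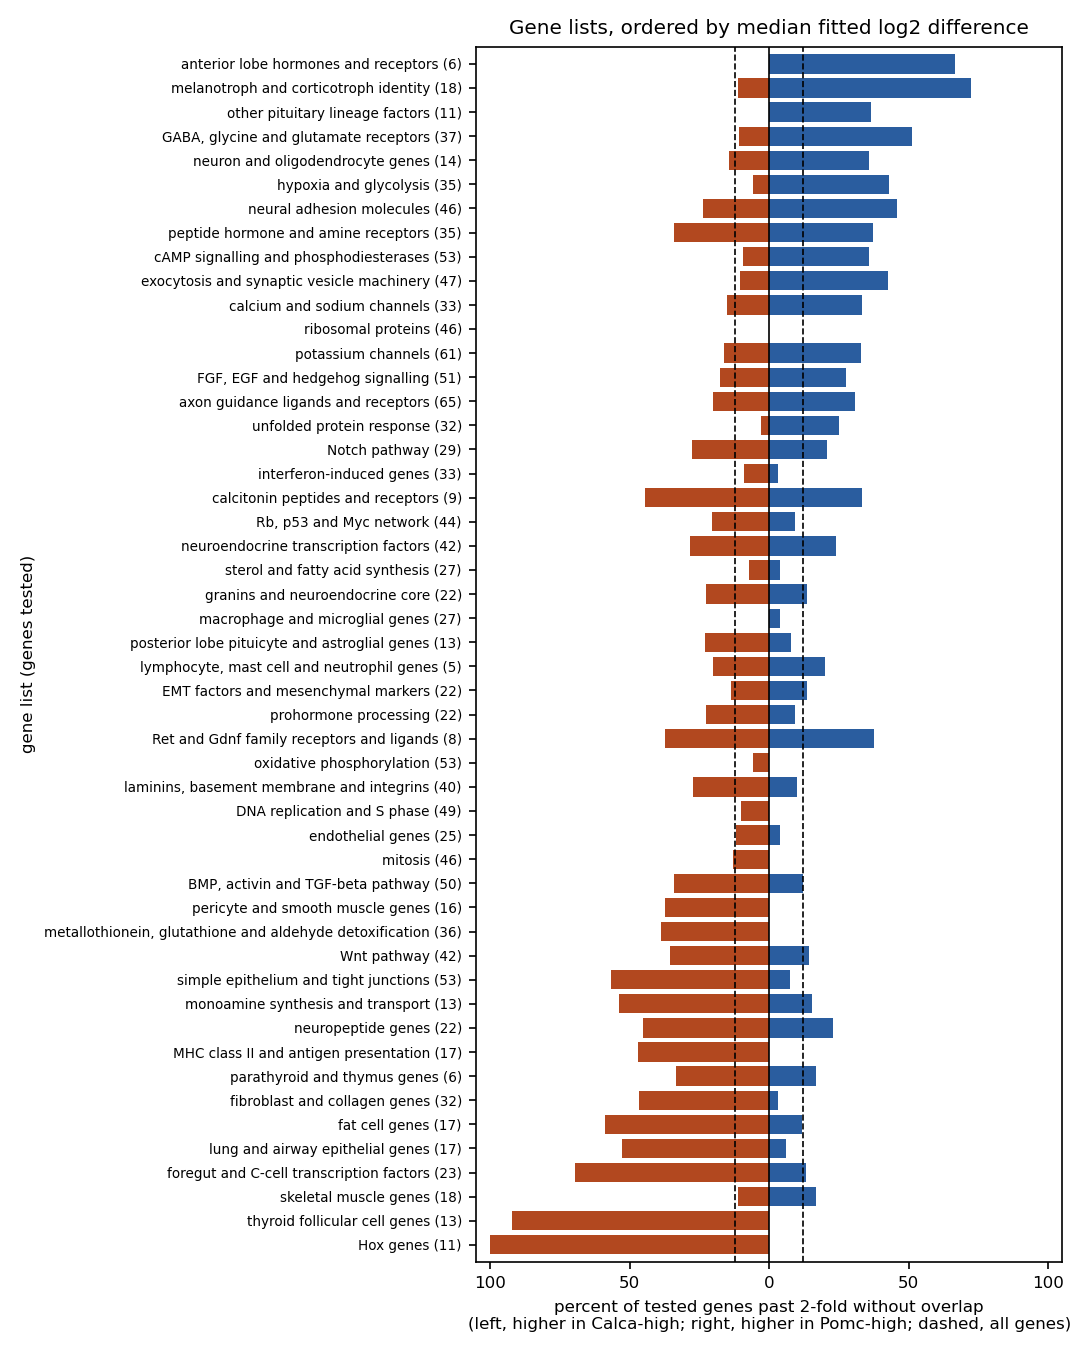
Percent of the tested genes of each list that were at least 2-fold apart without overlap, higher in the Calca-high set to the left and in the Pomc-high set to the right, with the lists in order of their median log2 difference and Pomc and Calca left out. The dashed lines mark all genes tested, at 12.3% and 12.2%, and the Hox and thyroid lists lie at the bottom with no gene higher in the Pomc-high set.

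Stromal genes leaned to the Calca-high set. The fibroblast and collagen list summed to 1658, 2064 and 1958 CPM in T1, T3 and T4 and to 337, 384 and 581 CPM (lowest, median and highest) in the Pomc-high set, and 15 of its 32 genes were higher in the Calca-high set, with 1 in the other and a median log2 difference of -2.32. Col16a1 was at 218, 481 and 133 CPM against 14.8 to 31.9 CPM and Col8a1 at 74.0, 73.8 and 155 CPM against 2.99 to 6.05 CPM. The main fibrillar collagen gene Col1a1 overlapped, at 55.8, 158 and 350 CPM against 3.49 to 58.7 CPM, as did the proteoglycan gene Dcn, at 220, 169 and 14.4 CPM against 3.001 to 15.7 CPM. The exception was Lox, which cross-links collagen, at 40.0 to 65.2 CPM in the Pomc-high and 10.9, 18.9 and 25.7 CPM in the Calca-high tumours. Of 16 pericyte and smooth muscle genes, 6 were higher in Calca-high tumours and 0 in Pomc-high ones. Without T4 those counts became 5 and 2.

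The endothelial and macrophage lists gave smaller counts. Of 25 endothelial genes, 1 was higher in Pomc-high tumours and 3 in Calca-high ones, and leaving out T2, T4, T5 or T9 raised the latter to 5 or 6. Over all genes 12.3% were higher in Calca-high tumours, so the 3 lie near that share. Ranges overlap less often with fewer libraries, and the count over all genes rose from 3709 to at least 3734 as well. The 1 was Esm1, at 449, 569 and 674 CPM against 2.63, 3.40 and 4.39 CPM. Without Esm1 the list summed to 241, 232 and 216 CPM in T1, T3 and T4 and to 117 to 178 CPM in the Pomc-high set, and Pecam1, the common endothelial marker, was at 23.3, 19.1 and 15.8 CPM against 5.32 to 14.1 CPM. The macrophage and microglial list overlapped, at 389, 371 and 346 CPM against 188 to 508 CPM, and 26 of its 27 genes did not pass the rule. In the list of antigen presentation, 8 of 17 genes were higher in Calca-high tumours and 0 in Pomc-high ones. B2m, the light chain of class I molecules, was at 737, 1588 and 1434 CPM against 70.9 to 134 CPM, and the heavy chain genes H2-D1 (556, 1347 and 630 against 107 to 141 CPM) and H2-K1 (616, 1533 and 884 against 134 to 174 CPM) went with it. The interferon-induced list did not, with 3 of 33 higher in Calca-high tumours and 1 in Pomc-high ones and a median of 0.06. Neither count exceeded the share of all genes, 12.3% and 12.2%.

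Thyroid follicular genes were present in the Calca-high libraries and uneven among them. All but 1 of 13 tested thyroid follicular genes were higher there, with a median log2 difference of -5.65. Tg, the thyroglobulin gene, was at 15693 CPM in T1, 6256 in T3 and 1936 in T4, against a lowest value of 4.24, a median of 5.05 and a highest of 141 CPM in the Pomc-high set. Iyd, which recycles iodide, followed at 135, 72.5 and 32.2 CPM against at most 2.28 CPM. The order T1, T3, T4 was shared by Tg, Iyd and Pax8, and their part in the other differences between the sets was not tested. Among the Pomc-high tumours T7 had the highest Tg, Iyd, Pax8 and Calca. Pth, the parathyroid hormone gene, was at 235 CPM in T3, 0.129 in T1 and 0.614 in T4 and overlapped the Pomc-high set.

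Lung and airway genes were also separated, 9 of 17 being higher in Calca-high tumours and 1 in Pomc-high ones. Sftpc, the surfactant protein C gene, was at 48.1, 135 and 59.4 CPM against at most 0.199 CPM, and Ager at 273, 177 and 97.7 CPM against at most 8.87 CPM. Fat cell and muscle genes depended on single tumours. Of 17 fat cell genes, 10 were higher in the Calca-high set, and 17 of 20 without T4. Adipoq was at 19.1, 15.3 and 2.41 CPM against at most 0.5995 CPM, while Lpl, lipoprotein lipase, was the reverse at 477 to 655 CPM in the Pomc-high and 39.8, 31.4 and 11.9997 CPM in the Calca-high libraries. The skeletal muscle list summed to 2045 CPM in T1, 26.1 in T3 and 212 in T4 and to 119 to 467 CPM in the Pomc-high set. Most of the Pomc-high sums came from Ttn. Without Ttn the list summed to 1961, 25.2 and 206 CPM in T1, T3 and T4 and to 18.2 to 107 CPM in the Pomc-high set. Of its 18 tested genes 2 were higher in the Calca-high set and 3 in the Pomc-high set. The count for the Calca-high set was 14 without T3 and 8 of 16 tested without T7. That for the Pomc-high set stayed at 3 without any 1 library. Muscle actin (Acta1) was at 328, 2.47 and 22.3 CPM and at most 14.1 CPM in the Pomc-high set.

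**Figure D4:**
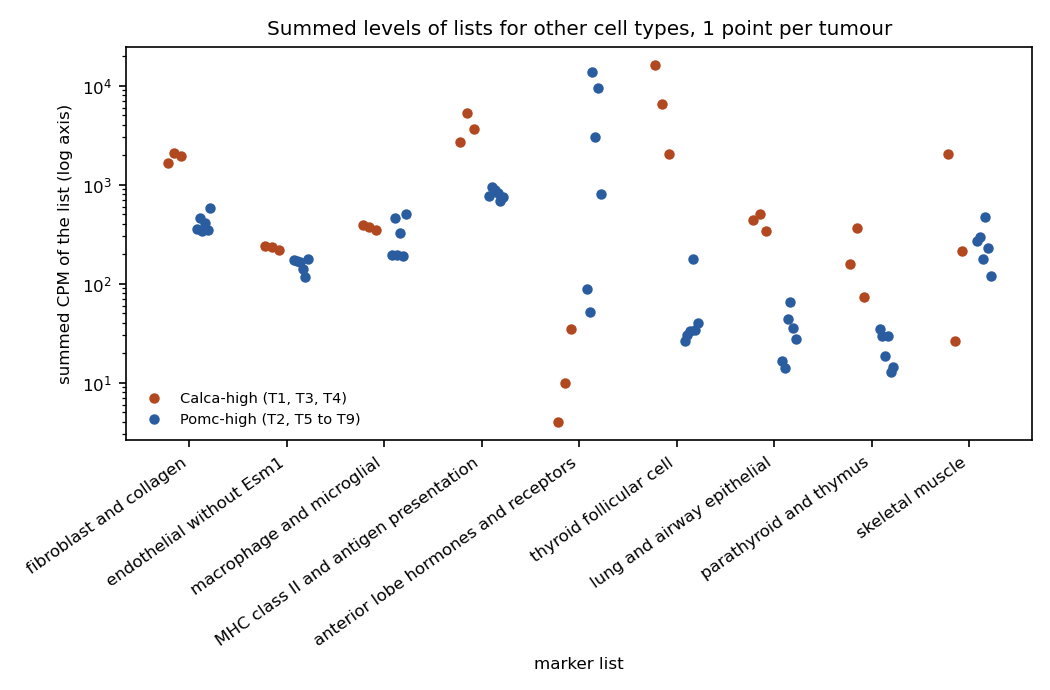
Summed CPM of 9 marker lists in each tumour on a log axis, Calca-high in orange and Pomc-high in blue. The fibroblast, endothelial (with Esm1 left out), antigen presentation, thyroid, lung and parathyroid lists are higher in all 3 Calca-high tumours, the anterior lobe list is higher in all 6 Pomc-high tumours, and the macrophage and muscle (with Ttn kept) lists overlap.

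Few genes of cell division were 2-fold apart. None of the 49 genes of DNA replication and the 46 of mitosis was higher in the Pomc-high set, and 5 and 6 were higher in the Calca-high set, with medians of -0.49 and -0.60. Over all genes 12.3% were higher in the Calca-high set, so these counts lie near the background. Without T4 only 1 mitosis gene was. Mki67 was at 149, 211 and 209 CPM against 92.8 to 194 CPM, and Pcna, the replication clamp, at 239, 279 and 267 CPM against 107 to 188 CPM. Of the Rb, p53 and Myc network, 9 of 44 genes were higher in Calca-high tumours and 4 in Pomc-high ones. The 4 did not exceed the 12.2% of all genes that were higher in Pomc-high tumours. Myc was at 19.9, 24.3 and 27.3 CPM in the Pomc-high set and at 5.31, 5.48 and 5.197 CPM in T1, T3 and T4, while the p53 relative Trp73 (48.2, 36.1 and 31.9 against at most 8.09 CPM) and Nfib (369, 426 and 414 against 56.8 to 77.4 CPM) were higher in the Calca-high set.

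Hypoxia and glycolysis genes leaned to the Pomc-high set, 15 of 35 against 2, with a median log2 difference of 0.81. Hk2, hexokinase, was at 50.1 to 70.3 CPM against 6.39, 5.94 and 10.1 CPM, and the glucose transporter gene Slc2a3 at 28.7 to 33.7 CPM against 4.10, 2.76 and 5.67 CPM. The abundant enzyme Ldha overlapped, at 472, 689 and 1019 CPM in T1, T3 and T4 and 573 to 802 CPM in the others. Detoxification genes leaned to the Calca-high set, 14 of 36 against 0, with Aldh2 at 432, 482 and 323 CPM against 46.8 to 67.6 CPM. Of 32 genes of the unfolded protein response, 8 were higher in the Pomc-high set and 1 in the Calca-high set, and the chaperone gene Hspa5 was level at 1727, 1684 and 1239 CPM and 1237 to 1656 CPM. None of the 46 ribosomal protein genes passed the rule.

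The sets were not uniform inside. In the Calca-high set T4 differed from T1 and T3 in peptides and identity genes, with the most Sst, Ppy, Lcn13 (990 against 7.94 and 86.2 CPM) and Clca4 (592 against 81.3 and 64.0 CPM), the most Pitx1, Sox2 and Syt1, and the least Tg, Igf1 and fat cell genes. Lcn13, a lipocalin gene, and Clca4, a channel regulator gene, were nonetheless far above the highest Pomc-high values of 0.399 and 0.295 CPM. The Pomc-high set was narrow for Tbx19, Pax7, Six3, Drd2 and Syt1, whose highest value was less than 2 times the lowest, and wide for Prl and Gh. Among the 4 tumours with Y-linked transcripts, T2 was the only Pomc-high one. With T2 left out of the choice of genes, a setting added after the data had been seen, 1848 genes were higher in Pomc-high tumours and 1908 in Calca-high ones, and T2 lay beyond all 3 Calca-high values on the same side for 1820 (98.5%) and 1892 (99.2%) of them. The Calca-high values had a part in choosing those genes, and T2 is 1 tumour.

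The 8 tumours labelled Rb1/Trp53/Crebbp were tested separately. They had no part in choosing the genes of the 9, but their own split used Pomc and Calca, so the test describes tumours divided by those 2 genes. Among them 7452 of 14448 genes (51.6%) passed an adjusted p of 0.05 (quasi-likelihood test of edgeR, adjusted by Benjamini-Hochberg over all genes), 3683 (25.5%) higher in Pomc-high and 3769 (26.1%) higher in Calca-high tumours. Of the 1673 genes that were higher in Pomc-high Rb1/Trp53 tumours and could be tested, 1239 (74.1%) were also higher there, 42 were lower and 392 did not pass. For the Calca-high genes 1318 of 1703 (77.4%) passed in the same direction, 2 in the other and 383 did not. The shared genes made up 33.6% and 34.97% of the genes called in the Rb1/Trp53/Crebbp libraries. No p is given for Pomc and Calca. Since it is not stated that each tumour is from its own mouse, p-values measure the spread between these samples.

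The identity genes differed in the same direction in these libraries. Tbx19 was higher in the Pomc-high tumours with a log2 difference of 11.68 (adjusted p = 1.54e-08), Pax7 with 11.47 (adjusted p = 6.72e-08) and Six3 with 11.99 (adjusted p = 1.14e-07), all higher in 4 of 4 Pomc-high tumours. Foxa1 (-7.80, adjusted p = 1.18e-06), Hhex (-8.54, adjusted p = 2.59e-06) and Hoxb8 (-11.16, adjusted p = 3.11e-08) were higher in the Calca-high tumours. By list, 13 of 18 melanotroph and corticotroph genes other than Pomc were higher in Pomc-high tumours, and 17 of 20 foregut factors and all 11 Hox genes in Calca-high tumours. For the melanotroph and corticotroph list and the Hox list no gene passed the test of a difference between genotypes, whose median was -0.61 and 0.01.

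Among secretory and stromal genes some differences were found there as well and others were not. Pcsk1 was higher in the Calca-high Rb1/Trp53/Crebbp tumours (-1.94, adjusted p = 3.86e-05), as were Syt7 (-3.48, adjusted p = 3.11e-08) and Cplx2 (-3.30, adjusted p = 2.09e-07), and Syt4 was higher in the Pomc-high ones (3.34, adjusted p = 8.26e-07). Of 32 fibroblast genes 17 were higher in Calca-high tumours, and of 17 genes of antigen presentation 15. The thyroid list, with 7 of 9 tested genes higher, summed to 1019 to 1417 CPM in the 4 Calca-high and 14.7 to 33.1 CPM in the 4 Pomc-high libraries. Counts of other lists were unlike those of the Rb1/Trp53 tumours, but the 2 rules differ. Adjusted p has no fold threshold, and 25.5% and 26.1% of all genes passed it as higher in Pomc-high and Calca-high tumours. By 2-fold without overlap these shares were 12.2% and 12.3%. Of 21 tested neuropeptide genes 7 were higher on each side (median 0.13), and of 22 granin and neuroendocrine genes 8 were higher in Pomc-high and 4 in Calca-high tumours. Of 13 monoamine genes 4 were higher in Pomc-high and 5 in Calca-high tumours, and of 10 fat cell genes 3 on each side. The test of the difference between genotypes is described next. In it, 5 of 22 granin and neuroendocrine genes, 5 of 17 monoamine genes and 3 of 16 fat cell genes passed with a higher value. Of 24 neuropeptide genes, 2 passed with a higher value and 2 with a lower one. Over all genes tested, 10% passed with a higher value and 12.8% with a lower one, 22.9% in all. One Pomc-high library stood apart: in T8 the neuron and oligodendrocyte list summed to 1878 CPM, against 563 to 640 CPM in the other 7, and the pituicyte and astroglial list to 1012 CPM, against 156 to 218 CPM in the other 3 Pomc-high libraries.

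Differences between the sets were tested against each other across the genotypes by an interaction term over all 17 libraries, where 1549 of 15432 genes (10%) had a log2 difference that was higher and 1982 (12.8%) one that was lower in Rb1/Trp53/Crebbp tumours, 22.9% in all. Of the genes higher in Pomc-high Rb1/Trp53 tumours, 693 passed this test. For 648 of them the log2 difference was shifted toward the Calca-high side in the Rb1/Trp53/Crebbp tumours. Of the genes higher in Calca-high Rb1/Trp53 tumours, 473 passed, 399 with a shift toward the Pomc-high side. These counts go by the sign of the shift, so genes that reversed, such as Car9 below, can be among them. The genes followed here were chosen for a large difference in the Rb1/Trp53 tumours, and the part of that choice in these shifts was not tested. With the tumour number as a replicate block the count fell to 1253. Sex-linked genes were not balanced in this test. Y-linked genes and Xist together summed to 143, 147 and 121 CPM in Calca-high Rb1/Trp53 T1, T3 and T4. In Calca-high Rb1/Trp53/Crebbp T1 to T4 they summed to 205, 3313, 3316 and 3352 CPM. The Pomc-high sums were 4.56 to 1901 and 1564 to 2639 CPM. Xist passed with a lower difference, and the part of sex in the other genes was not tested.

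**Figure D5:**
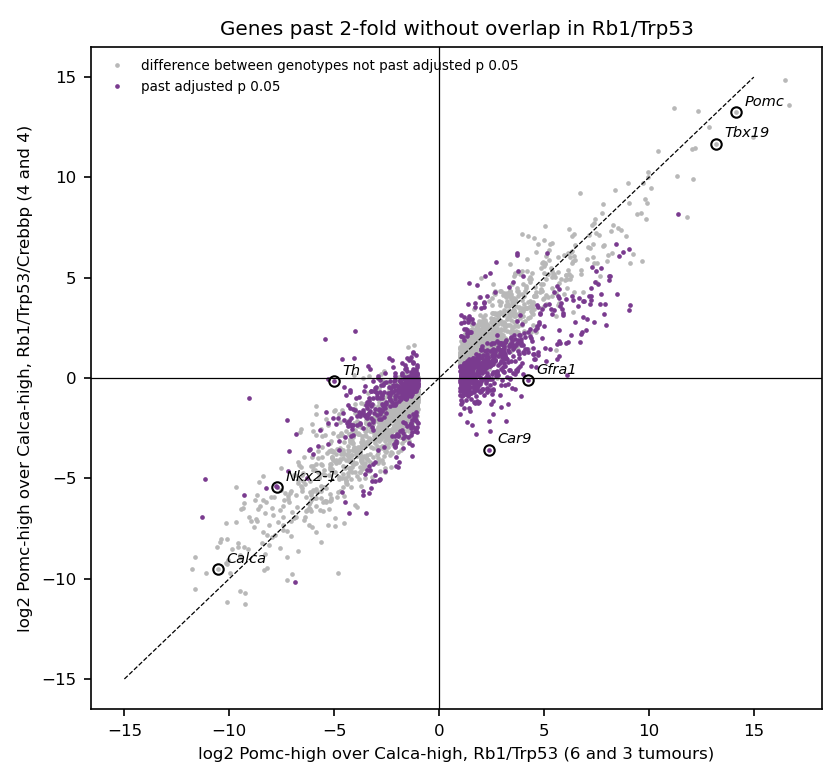
Log2 difference, Pomc-high over Calca-high, in the Rb1/Trp53 tumours (horizontal axis, at least 2-fold without overlap) and the Rb1/Trp53/Crebbp tumours (vertical axis), 1 point for each of 3376 genes, with 7 named genes ringed and genes past an adjusted p of 0.05 for the difference between genotypes in purple. The dashed line marks equal values. Tbx19 and Nkx2-1 keep their side in both genotypes, Th and Gfra1 lie near 0 on the vertical axis, and Car9 lies below it.

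Mdga2, Ryr3, Hadh and Ripply3 were among the genes with the smallest adjusted p in this test. Each had a difference in the Rb1/Trp53 tumours that was smaller in the Rb1/Trp53/Crebbp tumours. Not every gene of that rank is reported here. Mdga2, a synaptic adhesion gene, was at 20.1 to 31.4 CPM in the Pomc-high and at most 2.37 CPM in the Calca-high Rb1/Trp53 tumours, a log2 difference of 3.73 ± 0.22, which was 0.41 in the Rb1/Trp53/Crebbp tumours (difference -3.34, adjusted p = 2.23e-06). Ryr3, an intracellular calcium channel gene, had 6.81 and 2.30 (difference -4.53, adjusted p = 9.31e-06). On the Calca-high side, the fatty acid oxidation gene Hadh (158, 117 and 150 CPM against 18.1 to 23.7 CPM) went from -2.71 to -0.86 (difference 1.83, adjusted p = 5.26e-06) and Ripply3 from -4.00 to -1.59 (difference 2.39, adjusted p = 1.94e-05).

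Some members of the listed pathways had a difference in the Rb1/Trp53 tumours that was near 0 or reversed in the others. Th had a log2 difference of -5.02 ± 0.40 in the Rb1/Trp53 and -0.17 in the Rb1/Trp53/Crebbp tumours (difference 4.84, adjusted p = 0.00017). Gfra1 went from 4.22 ± 0.43 to -0.11 (difference -4.35, adjusted p = 0.000138) and Slit1, an axon repellent, from 3.25 ± 0.26 to 0.06 (difference -3.21, adjusted p = 0.00169). The carbonic anhydrase gene Car9, a hypoxia marker, was higher in the Pomc-high Rb1/Trp53 tumours, at 2.36 ± 0.62, and lower in the Pomc-high Rb1/Trp53/Crebbp tumours, at -3.56 (difference -5.95, adjusted p = 0.00012), and Bmp7 did the same at 2.38 ± 0.30 and -2.16 (difference -4.55, adjusted p = 0.0006). Ret (difference 2.77, adjusted p = 0.00938) kept its direction with a smaller size. For Nkx2-1 the difference was 2.28 (adjusted p = 0.0422), but it was 0.75 (adjusted p = 0.158) without Rb1/Trp53/Crebbp T8 and missed the threshold without any 1 of most other libraries. Nkx2-1 is a member of the pituicyte and astroglial list that was high in T8, and the part of such cells in this value was not tested.

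Counts of members past the test of the difference, against 22.9% of all genes, varied between lists. Of 46 ribosomal protein genes 0 were 2-fold apart without overlap in the Rb1/Trp53 tumours. In the Rb1/Trp53/Crebbp tumours 44 were higher in the Pomc-high set, by adjusted p with no fold threshold. These 2 counts cannot be compared directly, as the median log2 differences were 0.24 and 0.75, both below 2-fold. In the test of the difference 21 passed, all higher. Of 46 mitosis genes 6 were higher in Calca-high Rb1/Trp53 and 46 in Calca-high Rb1/Trp53/Crebbp tumours, by the different rules of the 2 comparisons, and 12 passed the test of the difference, all lower. Mki67 was 1 of these (difference -1.19, adjusted p = 0.00753, or 0.0561 with the tumour number as a block). Top2a was not (-0.59, adjusted p = 0.118), but passed without Rb1/Trp53 T4 (adjusted p = 0.0435) or Rb1/Trp53/Crebbp T6 (adjusted p = 0.029). In the hypoxia and glycolysis list 13 of 35 passed with a lower difference and 0 with a higher one, and in the oxidative phosphorylation list 22 of 53 passed with a higher one and 0 with a lower one.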

How the data were processed

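RNA from the tumours was sequenced after selection of polyadenylated RNA, per the labels' protocols. Per the submitters' processing notes, reads were aligned to mm9 with TopHat2 2.0.12 and counted with HTSeq 0.6.1, with bcl2fastq 1.8.2 used before that. The strand setting of the counting is not given in the sources used here. The authors deposited raw counts per gene symbol. The summary rows that name no gene (21.7% to 35.3% of a table for the 9 Rb1/Trp53 libraries) were left out. Total counts on genes in the 9 libraries were about 8741090 to 28140800, and counting intervals and floors cover counting error only.

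Samples were placed by their titles, and the sets by which of Pomc and Calca had the larger count. Counts were filtered with filterByExpr, scaled by TMM and fitted with edgeR 4.0.16 in R 4.3.3 by robust quasi-likelihood, with Benjamini-Hochberg adjustment over all genes tested. The fit of the 9 Rb1/Trp53 libraries is a description. The 8 Rb1/Trp53/Crebbp libraries and the interaction over 17 libraries were tested at an adjusted p of 0.05. A gene with no count in a set is given as a bound against 3 counts over that set, and 1 to 3 counts as a ratio with a 95% exact Poisson interval. The 52 gene lists held 1812 entries, of which 4 matched through a synonym and 5 did not match. Genes were named by rule: the 15 largest differences in each direction among genes whose higher set averaged 20 CPM or more, up to 5 members past the rule in each direction and 3 not past it per list, the interaction genes of smallest adjusted p, list members past the threshold there, and the cell type markers. Some genes that this rule names are not reported here. The members and lists were chosen with earlier results of these data known. Alternatives were other scalings, filters, tests (DESeq2 1.42.0, limma 3.58.1), leaving out each library, a 4-fold rule and the tumour number as a block. On simulated counts the fit of the 9 libraries called 44.9% of 98 genes changed 2-fold and 93.8% of 97 changed 4-fold.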

Additional observations from a re-analysis of the deposited data

Results flagged for a closer look

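Within the 6 Pomc-high Rb1/Trp53 tumours, 193 levels of named genes and summed lists were searched for 1 tumour standing far from the other 5, and 21 had one. The cutoff is one that about 1 in 20 independent values with a normal spread would pass. These levels are CPM, some near 0, and are not independent, so that rate gives no expected count here. Of the 21, 11 were in T7. Calca was at 239 CPM in T7 against 54.6 to 73.6 CPM in the other 5. Tg was at 141 CPM against 4.24 to 5.86 CPM, Iyd at 2.28 against at most 0.217 CPM, and Pax8 at 1.08 against at most 0.199 CPM. The summed thyroid follicular list, which includes these genes, was at 175 against 26.0 to 40.4 CPM. The same tumour had the highest Acta1 (14.1 CPM), Ager (8.87 CPM), Krt19 (3.84 CPM), Adipoq (0.5995 CPM) and Iapp (0.120 CPM, near the worth of 1 count), and the lowest Gdnf (17.03 CPM against 24.2 to 26.3 CPM). Each of these high values lay below the lowest Calca-high value of its gene except Acta1.

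In T8, 6 genes stood apart: Ptprn at 1102 CPM, Syt5 at 130 CPM, Ramp1 at 3.26 CPM, Tac1 at 3.04 CPM, Foxa1 at 1.85 CPM and Th at 1.30 CPM. In T6 these were Gh at 3123 CPM, Avpr1b at 12.9 CPM and Pyy at 0.299 CPM, and in T5 Htr2c at 9.20 CPM.

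Of 178 genes named here and tested by the interaction term in edgeR, Pomc and Calca left out, the contrast of the sets differed between genotypes for 50, higher in 21 and lower in 29, where 22.9% of all genes passed. Values are given for 12 of the 50. The log2 difference was lower in Rb1/Trp53/Crebbp tumours for Car9 (-5.95), Bmp7 (-4.55), Ryr3 (-4.53), Gfra1 (-4.35), Mdga2 (-3.34), Slit1 (-3.21) and Mki67 (-1.19). It was higher for Th (4.84), Ret (2.77), Ripply3 (2.39), Nkx2-1 (2.28) and Hadh (1.83).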

How the results depend on the processing

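The count of genes at least 2-fold apart without overlap in the Rb1/Trp53 tumours was 3709 and ranged from 3734 (without T5) to 4175 (without T4) when 1 library was left out. A 4-fold rule gave 1967. The count past an adjusted p of 0.05 among Rb1/Trp53/Crebbp libraries ranged from 6598 (without T7) to 7856 (without T8), and that of the interaction from 2487 (without Rb1/Trp53/Crebbp T3) to 3849 (without Rb1/Trp53/Crebbp T6). With libraries thinned to equal totals, added after the data were seen, 3427 genes passed the rule, and 3309 of them were among the 3709. The scaling moved the median of all genes between -0.01 and 0.02 on the log2 scale. Of 156 list medians under other scalings, 155 moved by less than their spread. The exception was the thyroid follicular list, -6.52 with Pomc and Calca removed before totals against -5.65, and the cause was not tested. Xist was the only named gene to turn direction, at -1.25 within the 4 libraries with Y-linked transcripts.

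The interaction fitted with the tumour number as a replicate block gave 1253 genes (371 higher, 882 lower), 1219 of them shared with the 3531 without it. Tumours of the 2 genotypes share only a number: the correlation of same-numbered deviations was -0.18 to 0.20 over 8 pairs. No paired analysis was possible for the sets themselves because each number occurs once within a genotype.

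Depth limits what can be said of genes near 1 count, which was worth up to 0.114 CPM before TMM scaling. Pomc-high libraries were the shallower ones.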
